A study of Homo sapiens with 6 samples.

Results

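The 10 genes described here encode the regulators of the NRF2 pathway together with the small MAF proteins: NFE2L1, NFE2L2, KEAP1, CUL3, BACH1, MAFF, MAFG, MAFK, OSGIN1 and TRIM16. They were chosen by name as a pathway, with earlier results of these data known. All 10 were found by symbol among the 65988 gene identifiers counted. All 10 also passed the filter on low counts, which left 16105 genes for testing. Every library came from U87MG, a long-established line of human glioblastoma cells whose genotype is labelled WT. Cells received vehicle (control, n = 3 libraries) or RSL3, an inhibitor of the lipid peroxide-reducing enzyme GPX4, at 2 µM (n = 3 libraries) for 24 h, and their poly(A) RNA was sequenced. The question was which genes respond during ferroptosis, a form of cell death driven by iron-dependent lipid peroxidation. The labels do not say whether the 3 libraries of a group came from separate cultures, so p-values measure the spread between these libraries, which may be technical.

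NRF2, the product of NFE2L2, is a transcription factor of the cap'n'collar (CNC) family that binds antioxidant response elements (AREs) in DNA as a partner of a small MAF protein. In unstressed cells KEAP1 holds NRF2 and presents it to an E3 ubiquitin ligase built on CUL3, so that NRF2 is degraded, and electrophiles or oxidants that modify KEAP1 let NRF2 accumulate without any need for more NFE2L2 mRNA. BACH1 is a repressor of the same family that competes for small MAF partners and AREs, and NRF1, the product of NFE2L1, is a membrane-anchored relative best known for driving proteasome genes. OSGIN1 and MAFG are known target genes of NRF2.

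Total counts per library ran from 27813462 to 43306335. Of the glioma line markers, VIM, CD44, NES, GFAP and OLIG2 were counted in all 6 libraries, whereas SOX2 and S100B had 0 to 2 counts. NES, GFAP and OLIG2 were low, at 82 to 368 raw counts, against at least 15961 for VIM and CD44. CD44 and VIM were lower in RSL3-treated cells. GFAP, NES and OLIG2 did not pass the test, with log2 fold changes of 0.40, 0.25 and 0.13. The summed normalised count of the 7 markers was 92806 to 94211 in control libraries and 73957 to 77454 in RSL3 libraries. That sum is mostly VIM and CD44, so it does not describe the other markers. Markers of leukocytes, microglia, endothelium, epithelium, neurons and oligodendrocytes summed to 24 to 48 normalised counts per library over 8 genes, with AIF1 and MOG at 0 throughout. Mitochondrial transcripts took 0.918% to 1.26% of the counts in control and 0.840% to 0.912% in RSL3 libraries. The part of these differences in the results that follow was not tested. In bulk RNA, fewer cells expressing a gene and less of its RNA per cell cannot be told apart.

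RSL3-treated cells held more mRNA of 8 of the 10 regulators, while the mRNA of the transcription factors NRF2 and NRF1 themselves did not pass the test. The gains ran from 8.84% for BACH1 to a fold of 1.95 for OSGIN1. A gene was called at an adjusted p under 0.05 in edgeR's quasi-likelihood test, with Benjamini-Hochberg adjustment over all genes tested. By this rule 25.6% of all genes tested were called, 12.9% higher and 12.7% lower in RSL3-treated cells. The median log2 fold change was 0.30 over the 10 regulators and -0.0044 over all genes tested. In the 8 upregulated genes every RSL3 library lay above every control library, which was the case in 19.3% of all genes tested, and libraries of the groups failed to overlap in either direction in 38.6%. No regulator was called lower (0 in edgeR and in DESeq2, and at an unadjusted p under 0.05, 0 in edgeR and 1 in DESeq2).

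**Figure D1:**
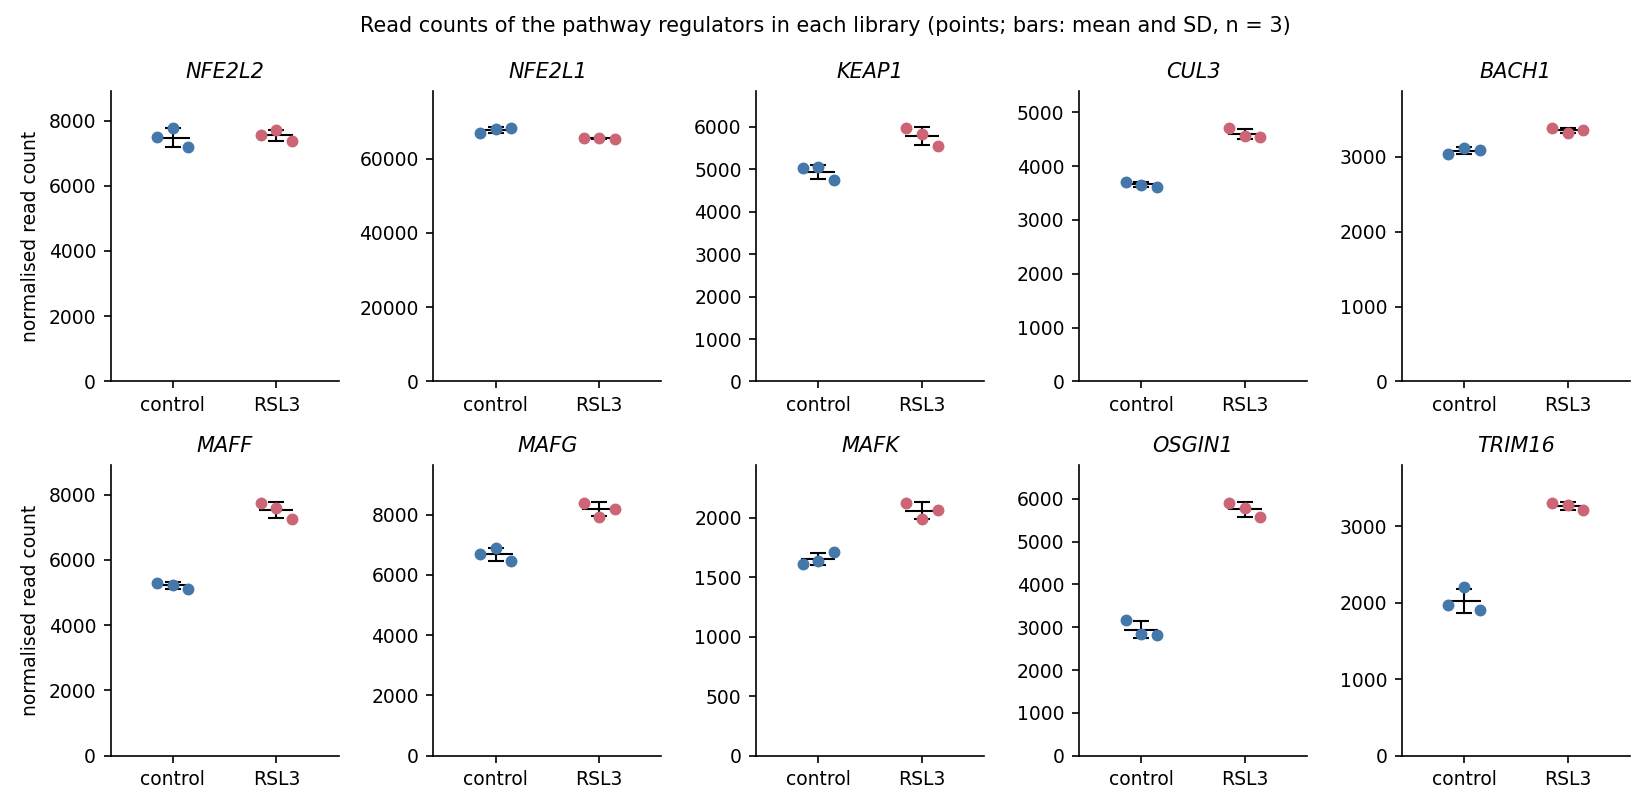
Normalised read counts of the 10 regulators (vertical axes, from 0) in the control and RSL3 libraries, with each library as a point and the mean and SD of 3 libraries as bars. In 8 panels the RSL3 points lie above all control points, in the NFE2L2 panel the groups overlap, and in the NFE2L1 panel the RSL3 points lie slightly below.

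NFE2L2 (ENSG00000116044) encodes NRF2 (GRCh38 chromosome 2, 177218667 to 177392756, minus strand). The normalised count, scaled to the mean library size, was 7489, 7757 and 7189 in control replicates 1, 2 and 3 and 7559, 7714 and 7370 in RSL3 replicates 1, 2 and 3. The highest and the lowest library were both control libraries, so the groups overlapped fully. Its log2 fold change came to 0.014 (SE, standard error, 0.033, adjusted p = 0.816 in edgeR), with a 95% interval from -0.056 to 0.083. A change in NFE2L2 mRNA within these bounds was not detectable with these libraries. The sign itself turned when control replicate 3 (-0.011) or RSL3 replicate 2 (-0.0017) was left out. All annotated exons of NFE2L2 together overlap those of other genes over 38.4% of their length in GENCODE v44. These are chiefly HNRNPA3 on the opposite strand and a long noncoding RNA on the same strand. Reads on bases shared with HNRNPA3 cannot be assigned without strand, and strand would not separate those shared with the noncoding RNA.

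NFE2L1 (ENSG00000082641, chromosome 17, 48048329 to 48061545, plus strand) was by far the most counted of the 10 genes. It held 66782, 68082 and 68139 normalised counts in the control libraries and 65658, 65556 and 65371 in the RSL3 libraries. Every RSL3 library was below every control library, by a small margin. The log2 fold change of -0.046 (SE 0.024, 95% interval -0.096 to 0.0035) did not pass the test (edgeR adjusted p = 0.172). Over the alternatives the adjusted p lay between 0.0499 and 0.367.

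KEAP1 and CUL3, the substrate adaptor and the scaffold of the ligase that degrades NRF2, both rose. KEAP1 (ENSG00000079999, chromosome 19, 10486125 to 10503558, minus strand) went from 5024, 5050 and 4746 to 5966, 5845 and 5541 normalised counts. The lowest RSL3 library was thus well above the highest control library, and the fold was 1.17 (log2 fold change 0.23, SE 0.036, adjusted p = 5.92e-05 in edgeR). No other annotated gene shares exon bases with KEAP1. KEAP1, HMOX1 and SQSTM1 were also picked out by the study from these same libraries, so their calls are not independent evidence.

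CUL3 (ENSG00000036257, chromosome 2, 224470150 to 224585397, minus strand) held 3714, 3652 and 3618 normalised counts in control libraries against 4700, 4559 and 4536 in RSL3 libraries. The spread within either group was under 2% of its mean, and the groups stood far apart. The rise was 25.5% (log2 fold change 0.33, SE 0.033, adjusted p = 1.79e-07 in edgeR). The log2 ratio of CUL3 to KEAP1 was higher by 0.10 in RSL3 libraries, without overlap between the groups. The exact permutation test over libraries, two-sided, gave p = 0.1, which is the smallest p that 3 against 3 libraries allow.

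BACH1 (ENSG00000156273, chromosome 21, 29194071 to 29630751, plus strand), the repressor of HMOX1 and other ARE genes, had the smallest gain. Its libraries were at 3038, 3123 and 3088 normalised counts in control cells and at 3379, 3322 and 3360 in RSL3-treated cells. The groups did not overlap, and the libraries of each group lay within 1.38% (SD) of their mean. The log2 fold change was 0.12 (SE 0.034, adjusted p = 0.0106 in edgeR). This call did not hold in DESeq2 with 2 surrogate variables, where the adjusted p was 0.108, and the range over all alternatives was 0.00618 to 0.108.

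**Figure D2:**
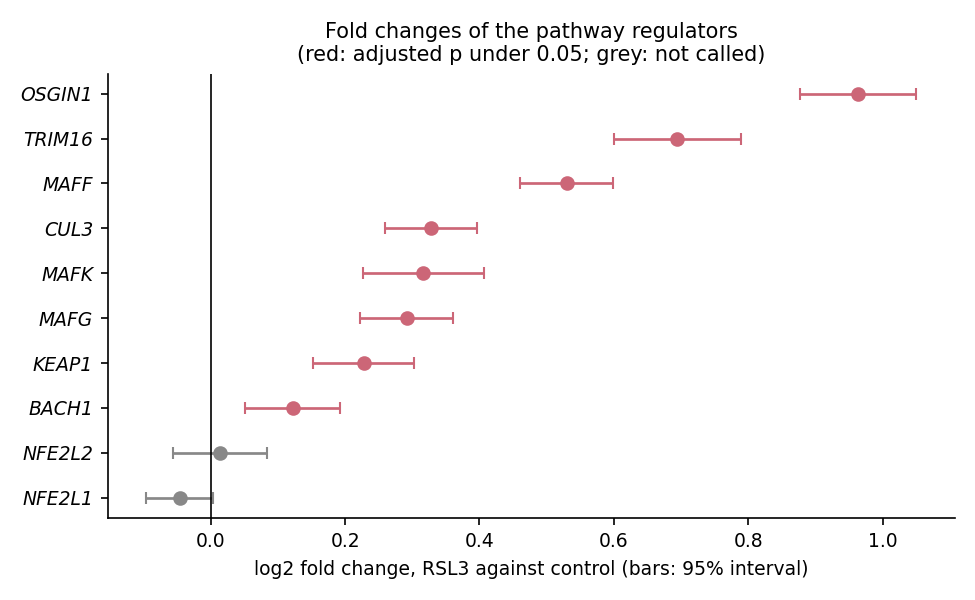
Log2 fold changes of the 10 regulators in RSL3-treated against control cells (horizontal axis), with 95% intervals from edgeR's fit of 3 libraries per group, ordered by size. OSGIN1 is highest at 0.96, the intervals of the 8 called genes (red) lie above 0, and those of NFE2L2 and NFE2L1 (grey) include 0.

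The small MAF proteins lack a transactivation domain of their own and serve as obligate DNA-binding partners of NRF2, NRF1 and BACH1. All 3 of their genes rose. MAFF (ENSG00000185022, chromosome 22, 38200767 to 38216507, plus strand), a small MAF gene also known to respond to stress and inflammatory signals, had the largest rise of them. It went from 5294, 5238 and 5111 normalised counts in control libraries to 7750, 7588 and 7250 in RSL3 libraries. The gap between the groups was several times the spread within them, with a fold of 1.44 (log2 fold change 0.53, SE 0.033, adjusted p = 2.39e-10 in edgeR).

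MAFG (ENSG00000197063, chromosome 17, 81918270 to 81927735, minus strand) stood at 6678, 6891 and 6464 normalised counts in control libraries and 8394, 7927 and 8191 in RSL3 libraries. Its fold was 1.22 (log2 fold change 0.29, SE 0.033, adjusted p = 9.67e-07 in edgeR). MAFK (ENSG00000198517, chromosome 7, 1530702 to 1543043, plus strand) had the lowest counts of the 10 genes, with 1608, 1637 and 1712 in control and 2125, 1988 and 2062 in RSL3 libraries after normalisation. Its rise resembled that of MAFG in size (fold 1.25, log2 fold change 0.32, SE 0.043, adjusted p = 1.08e-05 in edgeR), and the 95% intervals of both overlapped. The lowest raw count of MAFK in any library was 1331, for which counting error alone is 2.74% of the value. Exon bases shared with other genes come to 18.1% in MAFK, where TMEM184A lies opposite, 6.28% in MAFG and 5.81% in MAFF.

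Because MAFF rose more than its relatives, the makeup of the small MAF mRNA pool shifted. Levels were compared per length, as RPKM (here counts per kilobase of annotated exon at equal, TMM-scaled library size). Each gene was given as a share of the sum of MAFF, MAFG and MAFK. MAFF made up 36.6%, 35.7% and 36.0% of the pool in the control libraries and 39.9%, 40.9% and 39.0% in the RSL3 libraries. The share of MAFG went from 49.5% ± 0.743 (SD, n = 3) to 46.4% ± 0.716 (SD, n = 3). Which gene was the largest component depended on the length used. With all annotated exons it was MAFG in both groups, whereas MAFF stood above MAFG with the longest transcript (46.6 against 38.7 RPKM in control, 67.3 against 47.4 in RSL3-treated cells) and with the canonical transcript (64.4 against 38.7 in control). MAFK went from 14.4% ± 0.675 (SD, n = 3) to 13.7% ± 0.240 (SD, n = 3), a difference of -0.675 percentage points that was -0.286 without control replicate 3. None of the 3 shares overlapped between the groups, by a narrow margin for MAFK, and each exact permutation test gave the smallest p possible, 0.1.

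Relative to the mRNA of the CNC factors they pair with, the mRNA of the small MAFs gained. All ratios given here are of mRNA levels, and these libraries do not measure protein. The log2 ratio of the small MAF sum to the sum of NFE2L1, NFE2L2 and BACH1 was -2.27 ± 0.029 (SD, n = 3) in control and -1.85 ± 0.033 (SD, n = 3) in RSL3 libraries, a fold of 1.34 between the groups. That sum is mostly NFE2L1, so the ratio to NFE2L2 and BACH1 alone was added after the values were seen, and it differed by a fold of 1.25. The ratio of NFE2L2 to its inhibitor KEAP1 fell by 0.21 on the log2 scale, and that of NFE2L2 to its competitor BACH1 fell by 0.11. Neither of these overlapped between the groups (exact permutation p = 0.1, the smallest possible, for each). For NFE2L2 to BACH1 the margin was narrow, with the lowest control library at 0.2533 and the highest RSL3 library at 0.2495. The exact permutation p of this ratio was 0.2 without control replicate 1, control replicate 2 or any single RSL3 library. It was 0.1 without control replicate 3. The ratio of NFE2L1 to NFE2L2 overlapped, with a difference of -0.060 (-0.027 without control replicate 3) and an exact permutation p of 0.2.

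OSGIN1 and TRIM16 changed most. OSGIN1 (ENSG00000140961, chromosome 16, 83931311 to 83966332, plus strand), an oxidative stress-induced growth inhibitor, held 3177, 2837 and 2827 normalised counts in control libraries and 5909, 5795 and 5568 in RSL3 libraries. The lowest RSL3 library was far above the highest control library. The log2 fold change was 0.96 (SE 0.042, adjusted p = 1.64e-12 in edgeR), number 3 of all genes tested when ordered by p. MLYCD, the neighbouring gene on the same strand, overlaps 8.22% of the exon bases of OSGIN1 and had 2605 counts over the 6 libraries together.

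TRIM16 (ENSG00000221926, chromosome 17, 15627960 to 15684311, minus strand) encodes a tripartite motif protein reported to bind KEAP1, NRF2 and the autophagy receptor p62. Its libraries stood at 1963, 2202 and 1903 normalised counts in control and 3305, 3274 and 3210 in RSL3-treated cells. The control libraries scattered more (7.82% of their mean) than the RSL3 libraries (1.49%), yet the groups remained well apart, with a fold of 1.62 (log2 fold change 0.69, SE 0.045, adjusted p = 4.03e-10 in edgeR). The counts of TRIM16 are uncertain. Of the 75-base windows of its canonical transcript, 50.9% also occur in annotated transcripts of other genes, mainly a read-through gene that includes TRIM16 exons and TRIM16L, a related gene elsewhere on the same chromosome. Among the other members only MAFG shares any such window (0.682%). TRIM16L (ENSG00000108448) itself went from 3525, 3494 and 2959 to 5339, 5328 and 5144 normalised counts, a log2 fold change of 0.66 (edgeR adjusted p = 1.81e-09), so the libraries cannot tell how reads were divided between these copies.

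The order of the members by level depends on which length is used. With all annotated exons as length, the control order was NFE2L1, KEAP1, MAFG, MAFF, OSGIN1, NFE2L2, BACH1, MAFK, TRIM16 and CUL3, from 337 ± 3.83 (SD, n = 3) to 9.33 ± 0.124 (SD, n = 3) RPKM. Within this order the libraries of OSGIN1 and NFE2L2, and those of MAFK and TRIM16, overlapped. In RSL3-treated cells KEAP1 and MAFG overlapped instead, and TRIM16 moved above NFE2L2, BACH1 and MAFK. Only 2 of the 10 members kept their place in the control order with the longest transcript as length, and again 2 with the canonical transcript. The annotated exons of NFE2L2 sum to 14975 bases and its canonical transcript to 2446. NFE2L1 was first under all 3 lengths in both groups. In control cells it stood 8.32-fold above the next member with the exon length and 4.57-fold above it, then NFE2L2, with the canonical transcript. TRIM16, CUL3, BACH1 and MAFK were the lowest 4 in control cells under all 3 lengths.

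Promoter windows of the members were searched for the letters that CNC-MAF dimers and related factors read. The windows, from RefSeq on GRCh38.p14, span 250 bases before to 50 after each annotated start, and the table holds 16 of them for 9 of the 10 members. Both strands were searched for the ARE core TGACNNNGC, for TGCTGAC, an arm of the MAF recognition element (MARE), and for the AP-1 site TGACTCA, which can overlap in their TGAC. The ARE core was in 2 of the 16 windows, those of KEAP1 and MAFF, and in 13.3% of all 35116 windows. The MARE arm was in 1 window, that of OSGIN1, and in 4.19% of all. The AP-1 site was in 2 windows, of OSGIN1 and BACH1, and in 4.95% of all. With 16 windows nothing is read from these shares, and a match is a description of letters, not of a bound site.

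The matching stretches are shown because they are the places in these promoters where the letters occur, in the gene's own direction with the matches in capitals. The OSGIN1 stretch (chr16:83952990-83953238, plus strand) lies just before a start inside the annotated gene, and in it the MARE arm and the AP-1 site overlap into a single run at 100 to 91 bases before the start. The BACH1 stretch (chr21:29298672-29298921, plus strand), also before a start inside the annotated gene, holds the AP-1 site 48 to 42 bases before the start, as its reverse complement. For KEAP1 (chr19:10502809-10502833 and chr19:10502786-10502810, minus strand) and MAFF (chr22:38201864-38201888, plus strand) only the match with 8 bases on either side is given. The MAFF match and the second KEAP1 match are on the opposite strand. These KEAP1 and MAFF windows also belong to starts inside the annotated genes.
OSGIN1: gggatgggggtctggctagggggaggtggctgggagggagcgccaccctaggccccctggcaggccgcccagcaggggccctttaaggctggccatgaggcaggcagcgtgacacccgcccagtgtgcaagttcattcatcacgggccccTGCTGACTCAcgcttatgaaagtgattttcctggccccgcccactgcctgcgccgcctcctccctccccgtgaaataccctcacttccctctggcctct
BACH1: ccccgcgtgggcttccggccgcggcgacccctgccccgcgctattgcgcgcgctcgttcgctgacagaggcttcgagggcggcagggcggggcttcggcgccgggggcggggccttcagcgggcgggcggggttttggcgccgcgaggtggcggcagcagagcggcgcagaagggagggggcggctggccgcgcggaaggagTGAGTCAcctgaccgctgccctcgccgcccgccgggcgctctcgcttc
KEAP1, first match: ttttattgTGACACGGCgggcgccc
KEAP1, second match: ccggctctGCTTAGTCAtggtgacc
MAFF: tccaggggGCGGGGTCAtacggggg

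The wider pathway was read from gene lists, whose counts stand against the 12.9% of all genes tested that were called higher and the 12.7% called lower. The lists were chosen with earlier results of these data known, so these counts are descriptions, not independent evidence. Among 35 ARE target genes outside the 10 regulators, 32 could be tested, of which 24 rose, 2 fell and 6 did not pass the test, with a median log2 fold change of 0.36. GCLM, a subunit of the enzyme that makes the glutathione precursor, rose from 4088 ± 165 to 6525 ± 199 normalised counts (SD, n = 3 per group). HMOX1, the heme-degrading enzyme repressed by BACH1, and AKR1C1, an aldo-keto reductase, rose by log2 fold changes of 0.95 and 0.78. The genes that fell were AKR1B1 (log2 fold change -0.23) and CBR3 (-0.64), both carbonyl-reducing enzymes. CBR3 was counted low, at 97.1 ± 8.85 normalised counts in control and 62.3 ± 10.0 in RSL3 libraries (SD, n = 3 per group). The control mean of AKR1B1 was 87870. ME1, GPX2 and CES1 had at most 5 counts in any library and were not tested.

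Genes listed as partners of KEAP1, NRF2 or the CUL3 ligase were mixed. Of 15 genes tested, which include TRIM16L, 2 rose and 6 fell, with a median log2 fold change of -0.092. SQSTM1, which encodes p62, an autophagy receptor that binds KEAP1 and draws it away from NRF2, went from 87241, 88098 and 82841 normalised counts in control libraries to 130282, 128014 and 118639 in RSL3 libraries. Like KEAP1, SQSTM1 was picked out by the study from these libraries. The log2 fold change was 0.55 (SE 0.032, adjusted p = 7.74e-11 in edgeR). This is a change in mRNA. By Western blot, the study reported that p62 protein fell over time in RSL3-treated glioma cells. RBX1, the RING subunit of the CUL3 ligase, fell by 0.20 on the log2 scale (edgeR adjusted p = 0.00869), and CAND1, the exchange factor of cullin ligases, fell by 0.12 (0.00763). CUL3 and RBX1, which act in 1 complex, thus changed in opposite directions. PSMD10 (gankyrin), which binds KEAP1, fell by 0.18 (0.000658).

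Other routes of NRF2 and NRF1 turnover and their coactivators moved little. Among 13 genes of other degradation routes, 2 rose and 3 fell. DDB1, CUL4B and DCAF11, which form a ligase that targets NRF2 without KEAP1, all fell, with log2 fold changes of -0.20, -0.20 and -0.17, and edgeR adjusted p of 9.02e-06, 0.000520 and 0.00537. CUL4A, the relative of CUL4B, did not pass the test (log2 fold change -0.014, edgeR adjusted p = 0.792). Its mean normalised count in control libraries was 10592, against 3736 for CUL4B. DDB1 was at 13977 to 14082 normalised counts in control libraries and 12126 to 12199 in RSL3 libraries. SYVN1, an endoplasmic reticulum ligase, rose by a log2 fold change of 0.15 and CUL1 by 0.12. Of 6 genes that process NRF1, NGLY1, its deglycosylase, and SEL1L rose (0.20 and 0.12) and OGT fell (-0.17), though the OGT libraries of the groups overlapped. Of 6 coactivators, CREBBP, CHD6 and EP300 rose, by log2 fold changes between 0.12 and 0.17. Over all these regulators outside the 10, together with the rest of the CNC and MAF families, 21 of 45 tested were called, 9 higher and 12 lower, against 25.6% of all genes tested. That number was 10 in DESeq2 with 2 surrogate variables and 12 without RSL3 replicate 2.

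Other CNC and MAF family genes were low in U87MG cells. BACH2, the relative of BACH1, fell from 84.9, 102 and 73.9 to 42.5, 50.9 and 66.9 normalised counts, with no overlap between the groups (log2 fold change -0.68, edgeR adjusted p = 0.0244). NRL, MAF and NFE2L3 did not pass the test.

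Of 32 genes for proteasome subunits and the assembly factor POMP, the best known targets of NRF1, 8 rose, 2 fell and 22 did not pass the test, with a median log2 fold change of 0.037. PSMC5, PSMD12 and PSMD4 had the smallest p among those that rose, with log2 fold changes of 0.14, 0.12 and 0.11. PSMB3 (-0.82, from 71.3 ± 19.2 to 39.9 ± 4.03 normalised counts, SD, n = 3) and PSMA4 (-0.099) fell. PSMB3 was counted far below the other PSMB genes listed, whose mean control counts were 2395 to 12709, so its value is uncertain. The reason was not tested. The share that rose, 8 of 32, compares with 12.9% of all genes tested. The number that rose was 0 in DESeq2 with 2 surrogate variables (8 at an unadjusted p under 0.05, and 8 called in DESeq2 without them). It was 1 without control replicate 3, 3 without RSL3 replicate 1 and 2 without RSL3 replicate 2.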

How the data were processed

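Libraries of poly(A) RNA from 6 U87MG samples (3 control, 3 RSL3) were sequenced from both ends. The values the authors deposited are raw counts per Ensembl gene. Before counting, reads had been quality-trimmed (Trimmomatic 0.36, Fastp) and mapped with HISAT2 on the GRCh38.p4 build, and HTSeq 0.6.1p1 assigned them to exons without regard to strand, as the methods and the submitters' processing notes state. The annotation release is not given in the sources used here. The exposure time is that of the legend to the sequencing results.

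Differences were tested with edgeR 4.0.16 under R 4.3.3: filterByExpr (minimum count 10), TMM, quasi-likelihood F test, Benjamini-Hochberg adjustment and a threshold of 0.05, with no covariate. Standard errors were derived from the F statistic. The study used DESeq2 after surrogate variable analysis, and DESeq2 1.42.0 with 0, 1 or 2 surrogate variables (sva 3.50.0, on genes with a mean normalised count over 1) was an alternative. Further alternatives were RLE or total-count scaling, no filter or at least 10 counts in every library, the replicate number as a block, omission of each library, and other gene lengths, of which the canonical transcript was added after seeing the data. Symbols, coordinates, lengths and overlaps come from GENCODE v44 on GRCh38. The members and lists were chosen with earlier results of these data known. Besides the members, up to 3 genes of smallest p per list and direction were named, and CUL4A was added beside CUL4B. A gene that this rule selects is not reported here. For RSL3 against control, simulated counts with 200 altered genes out of 16091 gave 96% recovery and calls in 0.0692% of unaltered genes. All genes were simulated with a common dispersion of 0.00171, whereas dispersion differed between genes in the data. Only genes above a minimum mean count were altered, so both percentages hold for that setting. The 96% is for all altered genes together. Recovery of changes as small as those of KEAP1, CUL3, BACH1, MAFG and MAFK was not tested. Total counts had a median of 33575028 per library. The counting error given for MAFK covers counting only.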

Additional observations from a re-analysis of the deposited data

How the results depend on the processing

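Under the 14 alternatives KEAP1, CUL3, MAFF, MAFG, MAFK, OSGIN1 and TRIM16 kept their direction and their call, and ARE targets called higher numbered 23 or 24. Scaling shifted the median log2 fold change of all genes by less than 0.1. In DESeq2 with 2 surrogate variables, 2268 genes were called against 4123, the proteasome genes called higher were 0, the other regulators called were 10, and BACH1 lost its call. The cause was not tested. Leaving out each library in turn gave 3081 to 3924 genes called, 1 to 8 proteasome genes called higher and 12 to 20 other regulators called. NFE2L2 ranged from -0.011 to 0.043 with a library left out, reversing its sign at -0.011 without control replicate 3 and at -0.0017 without RSL3 replicate 2, far inside its interval. With the longest or the canonical transcript as length, 2 of the 10 members kept their place in the order of control levels, and the shares and ratios of members kept their direction under every length and without any single library, though without control replicate 3 the MAFK share difference shrank from -0.675 to -0.286 percentage points and the log2 ratio of NFE2L1 to NFE2L2 from -0.060 to -0.027.

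Deviations from the group means of libraries with the same replicate number correlated weakly, at 0.022, 0.027 and 0.074. Only RSL3 replicate 1 correlated better with another number, control replicate 2 (0.024). With the replicate number as a block, 4633 genes were called against 4123 without it, and the standard error of each member was smaller. Whether the numbers mark pairs cannot be told from these values. Under the block 1 member was called lower, NFE2L1, at an edgeR adjusted p of 0.0499 and a log2 fold change of -0.046. The members called higher remained 8 in number.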
